A study of Homo sapiens with 12 samples.

Results

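The T-cell receptor signalling genes are 37 listed human genes for the receptor chains and the proteins that carry, tune or stop the receptor's signal. They were matched by symbol to the Ensembl identifiers of the deposited count tables. All 37 were found in all 3 tables, among 33704 genes listed in at least 1 table, and all 37 passed the filter on low counts in every comparison. By role, they comprised 4 receptor chains, 6 costimulators and surface molecules, 6 kinases, 9 adaptors, 4 signalling enzymes, 5 phosphatases and ubiquitin pathway brakes, and 3 transcription factors. Messenger RNA was sequenced from Jurkat, an established line of human T-cell acute lymphoblastic leukaemia, in 12 libraries that formed 6 groups of 2. TAL1-KD cells carried a doxycycline-inducible short hairpin RNA (shRNA) against TAL1, a blood stem cell transcription factor that is abnormally active in this leukaemia, and received 5 µg/ml doxycycline for 72 h. TAL1-control cells carried the same shRNA without doxycycline. UTX-KD and UTX-control cells carried an inducible shRNA against UTX, the histone demethylase encoded by KDM6A, with and without the same doxycycline treatment. These shRNA cells all grew in medium with Tet-free serum, blasticidin and an antibiotic that the first label gives as G418 and the others with a running number. J4-2uM cells were Jurkat cells without an shRNA in the labels, treated with 2 µM GSK-J4, a small-molecule inhibitor of KDM6 demethylases, for 72 h, and J4-control cells received the vehicle DMSO for 72 h, both without these antibiotics. The controls of the shRNA lines received no doxycycline, so effects of doxycycline and of the induced shRNA cannot be told apart, and the labels do not say whether a line was a single clone.

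When a T cell meets antigen, the receptor's CD3 and zeta chains are phosphorylated by the kinase LCK, and ZAP70 binds to them. ZAP70 phosphorylates the adaptors LAT and LCP2 (SLP-76), which gather PLCG1, VAV1 and further adaptors, and calcium, Ras and protein kinase C signals then reach NFAT and NF-kB. CSK, some phosphatases and ubiquitin ligases such as CBLB hold the signal down, and in the thymus its strength helps to decide which developing T cells survive.

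Library depth ran from 55524079 to 82534711 counted reads. Nothing in the labels says that replicates were separate cultures, so each p-value speaks of the scatter among these libraries alone, possibly a technical one. The replicate libraries of TAL1-KD spread more than those of any other group, with a biological coefficient of variation of 8.40% in their comparison, beside 2.30% for the UTX-labelled libraries and 2.69% for those of GSK-J4. Neither targeted mRNA was shown to be lower in the comparison named after it. TAL1 had 252 and 278 CPM (read counts scaled to a common library size) in TAL1-KD libraries, against 272 and 276 CPM in TAL1-control libraries (adjusted p = 0.490). KDM6A had 29.6 and 29.8 CPM in UTX-KD libraries, against 30.8 and 31.2 CPM in UTX-control libraries (adjusted p = 0.103). Group names are therefore used as labels only, and every direction below is that of the libraries so labelled. In the edgeR test defined below, TAL1 mRNA was lower in J4-2uM (log2 fold change -0.66, adjusted p = 6.02e-10). TAL1 was also lower in UTX-KD (-0.12, adjusted p = 0.00155). KDM6A mRNA was higher in J4-2uM (0.44, adjusted p = 1.24e-07) and had 0.19 in TAL1-KD (adjusted p = 0.0576). Of the 11 T-lineage markers outside the list, 10 had 83 to 94532 reads per library, the lowest being RAG2, while TRBC1 had 0 to 5. Markers of other cell types were mostly scarce. Among 6 B-cell markers, CD79A had 2069 to 7065 and CD79B 5 to 239 reads, and the others at most 27. Among 4 NK-cell markers, NKG7 had 173 to 649 and NCAM1 47 to 258 reads, and the others at most 40. ITGAM (10 to 104 reads) led 6 myeloid markers and KRT8 (5 to 144 reads) led 4 epithelial ones, and the others of these lists had at most 22.

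A gene is called higher or lower here where the quasi-likelihood test of edgeR gave a p below 0.05 after Benjamini-Hochberg adjustment over all genes tested in that comparison. Between TAL1-KD and TAL1-control, 13 of the 37 genes were higher and 7 lower, where 26.3% and 27.9% of the 16829 genes tested were called in these directions. Between UTX-KD and UTX-control, 15 were higher and 9 lower, against 25.2% and 25.3% of 16847 genes. Between J4-2uM and J4-control, 14 were higher and 17 lower, against 37.9% and 36.9% of 17907 genes. For any call, the shares of the list were 54.1%, 64.9% and 83.8%, beside 54.2%, 50.5% and 74.9% of all genes tested, so in the TAL1-labelled comparison the list stood at the background. The list was chosen with earlier results of these data known, so its shares are not independent of them. The median log2 fold change of the 37 genes was 0.16, 0.06 and -0.01 in the 3 comparisons, beside -0.02, 0.01 and 0.01 over all genes tested. Over the 3 comparisons, 12 genes were called only in the higher direction, 10 only in the lower, 13 in both and 2, BCL10 and VAV1, in neither. These are 32.4%, 27.0%, 35.1% and 5.41% of the list, beside 33.5%, 33.9%, 23.6% and 8.95% of the 16103 genes tested in all 3, and whether the shares differ was not tested. In these bulk cultures, fewer cells expressing a gene and less of its RNA per cell cannot be told apart.

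**Figure D1:**
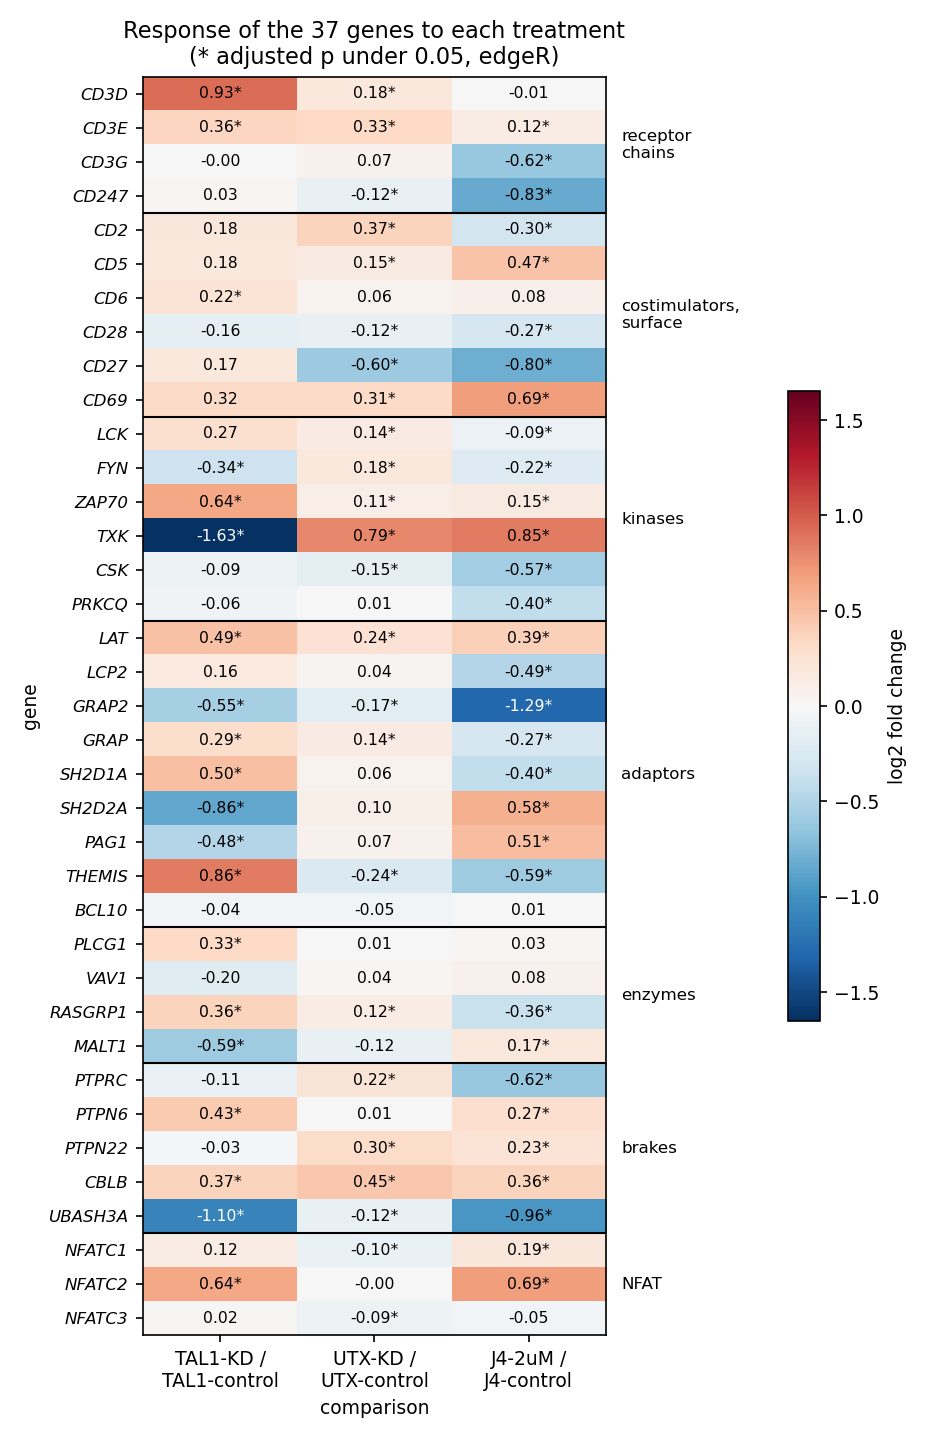
Heat map of log2 fold changes of the 37 genes (rows, grouped by role) in TAL1-KD over TAL1-control, UTX-KD over UTX-control and J4-2uM over J4-control (columns); each cell prints its value, and an asterisk marks an adjusted p below 0.05. TXK, THEMIS, SH2D2A and PAG1 have opposite signs in TAL1-KD and J4-2uM, and GRAP2 is negative in all 3 columns.

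Of the receptor chains, CD3D and CD3E were among the most abundant of the 37 genes. Per kilobase of exon, CD3D, CD3E, LCK and ZAP70 took the first 4 places in each of the 6 groups. CD3D was always first, at 640 CPM per kb in TAL1-KD and 331 CPM per kb in TAL1-control. CD3G took place 8 in TAL1-control and 11 in J4-2uM, and CD247 took places 10 and 14. TXK was last in every group, at 0.221 CPM per kb in TAL1-KD and 0.672 CPM per kb in TAL1-control. The kinase ZAP70 had 171 CPM per kb in TAL1-KD and 108 CPM per kb in TAL1-control. All other values below are CPM without length scaling, which compare libraries and not genes.

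Promoter windows are shown for 4 genes on which the results below turn: CD3D and CD247, receptor chains with their largest changes in different comparisons, TXK, a kinase with opposite responses, and GRAP2, an adaptor called lower in all 3 comparisons and shown at its 2 annotated starts. Each is the 250 bases before a transcription start from RefSeq (GRCh38.p14), printed 5′ to 3′ on the gene's strand, with capitals marking CANNTG, the E-box that TAL1 dimers are known to bind. The coordinates are chr11:118342706-118342955 (minus strand) for CD3D, chr1:167518530-167518779 (minus) for CD247, chr4:48134251-48134500 (minus) for TXK, and chr22:39926354-39926603 and chr22:39946567-39946816 (plus) for GRAP2.
CD3D: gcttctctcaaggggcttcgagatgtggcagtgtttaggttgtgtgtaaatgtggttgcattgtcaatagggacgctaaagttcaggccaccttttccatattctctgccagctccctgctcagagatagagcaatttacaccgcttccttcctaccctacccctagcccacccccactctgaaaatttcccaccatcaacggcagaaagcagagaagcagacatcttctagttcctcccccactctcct
CD247: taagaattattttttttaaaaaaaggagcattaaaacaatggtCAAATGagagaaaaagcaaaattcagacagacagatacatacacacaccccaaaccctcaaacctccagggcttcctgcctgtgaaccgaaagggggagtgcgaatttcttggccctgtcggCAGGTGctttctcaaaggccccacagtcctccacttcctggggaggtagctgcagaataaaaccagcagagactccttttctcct
TXK: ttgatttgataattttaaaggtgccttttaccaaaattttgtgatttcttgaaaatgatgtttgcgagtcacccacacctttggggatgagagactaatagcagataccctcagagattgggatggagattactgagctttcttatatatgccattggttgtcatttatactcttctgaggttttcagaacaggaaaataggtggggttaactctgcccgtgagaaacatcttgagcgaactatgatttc
GRAP2 start 1: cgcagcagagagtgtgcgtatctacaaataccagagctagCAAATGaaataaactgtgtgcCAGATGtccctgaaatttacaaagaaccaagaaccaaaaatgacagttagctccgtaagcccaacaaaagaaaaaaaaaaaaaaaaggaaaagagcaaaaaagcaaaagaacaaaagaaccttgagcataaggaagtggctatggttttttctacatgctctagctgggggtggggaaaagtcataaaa
GRAP2 start 2: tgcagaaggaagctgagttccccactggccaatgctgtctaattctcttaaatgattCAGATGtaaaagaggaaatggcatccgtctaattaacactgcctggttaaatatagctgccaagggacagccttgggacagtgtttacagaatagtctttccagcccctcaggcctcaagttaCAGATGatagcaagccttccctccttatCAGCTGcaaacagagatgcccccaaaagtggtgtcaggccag
CANNTG occurred 2 times in the CD247 window, 2 and 3 times in the GRAP2 windows and 0 times in those of CD3D and TXK. Among the 46 windows of the 29 genes with an entry, 28 (60.9%) held CANNTG, beside 61.8% of all 35116 windows of the same length. Motifs of other factor families were searched on both strands as well. The RUNX motif TGTGGT was held by 15.2% of these 46 windows and by 10.98% of all windows. The ETS motif GGAAG was held by 76.1% of these and 65.1% of all windows. The motif of GATA factors, GATAA, was held by 15.2% of these and 20.4% of all windows. A motif of one kind may overlap one of another kind. These matches describe the letters only, and none of the libraries measured binding there.

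The receptor chains moved apart from each other. CD3D and CD3E rose in TAL1-KD, while CD3G and CD247 were not called there. CD3D had 524 and 665 CPM in TAL1-KD libraries, against 295 and 320 CPM in TAL1-control libraries (log2 fold change 0.93, SE 0.13, adjusted p = 0.00108). Its groups did not overlap, and both TAL1-KD libraries were above every other library of the series. CD3E had 859 and 1061 CPM in TAL1-KD libraries, against 715 and 757 CPM in TAL1-control libraries (log2 fold change 0.36, SE 0.12, adjusted p = 0.0404), a call near the threshold. Without TAL1-control replicate 1 the log2 fold change was 0.32 (adjusted p = 0.327), and without replicate 2 it was 0.40 (adjusted p = 0.203). Upper quartile scaling and a minimum mean CPM of 1 also ended the call (adjusted p = 0.0585 and 0.0535). CD3G had 181 and 170 CPM in TAL1-KD libraries, against 170 and 176 CPM in TAL1-control libraries, overlapping groups. CD247, the zeta chain that carries most of the receptor's signalling motifs, had 148 and 158 CPM in TAL1-KD libraries, against 144 and 152 CPM in TAL1-control libraries (log2 fold change 0.03, adjusted p = 0.799).

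In J4-2uM the other chains moved. CD3G fell to 85.8 and 81.0 CPM in J4-2uM libraries, against 129 and 129 CPM in J4-control libraries (log2 fold change -0.62, SE 0.04, adjusted p = 2.62e-09). CD247 fell to 75.0 and 74.1 CPM in J4-2uM libraries, against 133 and 133 CPM in J4-control libraries (log2 fold change -0.83, SE 0.03, adjusted p = 7.88e-11). In both genes every treated library was below every vehicle library. CD3D had 220 and 213 CPM in J4-2uM libraries, against 221 and 217 CPM in J4-control libraries, with overlapping groups and an adjusted p of 0.747. CD3E had 478 and 456 CPM in J4-2uM libraries, against 424 and 438 CPM in J4-control libraries, a small increase that passed the test (log2 fold change 0.12, SE 0.03, adjusted p = 0.00584) but not without J4-control replicate 1 (adjusted p = 0.207).

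In UTX-KD, CD3E changed the most of the chains. CD3E had 683 and 672 CPM in UTX-KD libraries, against 531 and 529 CPM in UTX-control libraries (log2 fold change 0.33, SE 0.03, adjusted p = 6.79e-08), and CD3D had 339 and 338 CPM in UTX-KD libraries, against 289 and 300 CPM in UTX-control libraries (log2 fold change 0.18, SE 0.03, adjusted p = 8.49e-05). CD247 had 126 and 122 CPM in UTX-KD libraries, against 132 and 134 CPM in UTX-control libraries (log2 fold change -0.12, SE 0.03, adjusted p = 0.00275), whereas CD3G, with 191 and 192 CPM in UTX-KD libraries, against 182 and 177 CPM in UTX-control libraries, was not called (adjusted p = 0.0641). CD3E was thus the receptor chain called higher in all 3 comparisons, with calls in TAL1-KD and J4-2uM that single libraries could end. As ratios of reads within a library, CD3D over CD3G was 2.89 and 3.91 in TAL1-KD, against 1.73 and 1.81 in TAL1-control, and 2.56 and 2.63 in J4-2uM, against 1.71 and 1.69 in J4-control. In UTX-KD it was 1.78 and 1.76, against 1.59 and 1.69 in UTX-control. CD3E over CD247 was higher in every treated library than in its controls, at 5.82 and 6.71 in TAL1-KD against 4.98 and 4.98 in TAL1-control, 5.42 and 5.50 in UTX-KD against 4.01 and 3.96 in UTX-control, and 6.37 and 6.15 in J4-2uM against 3.20 and 3.29 in J4-control. Summed over the 4 chains, TAL1-KD libraries had 1712 and 2055 CPM, against 1324 and 1406 CPM in TAL1-control. The sums were 1339 and 1323 CPM in UTX-KD, against 1134.8 and 1140.5 CPM in UTX-control. J4-2uM libraries had 824 and 859 CPM, against 907 and 918 CPM in J4-control.

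**Figure D2:**
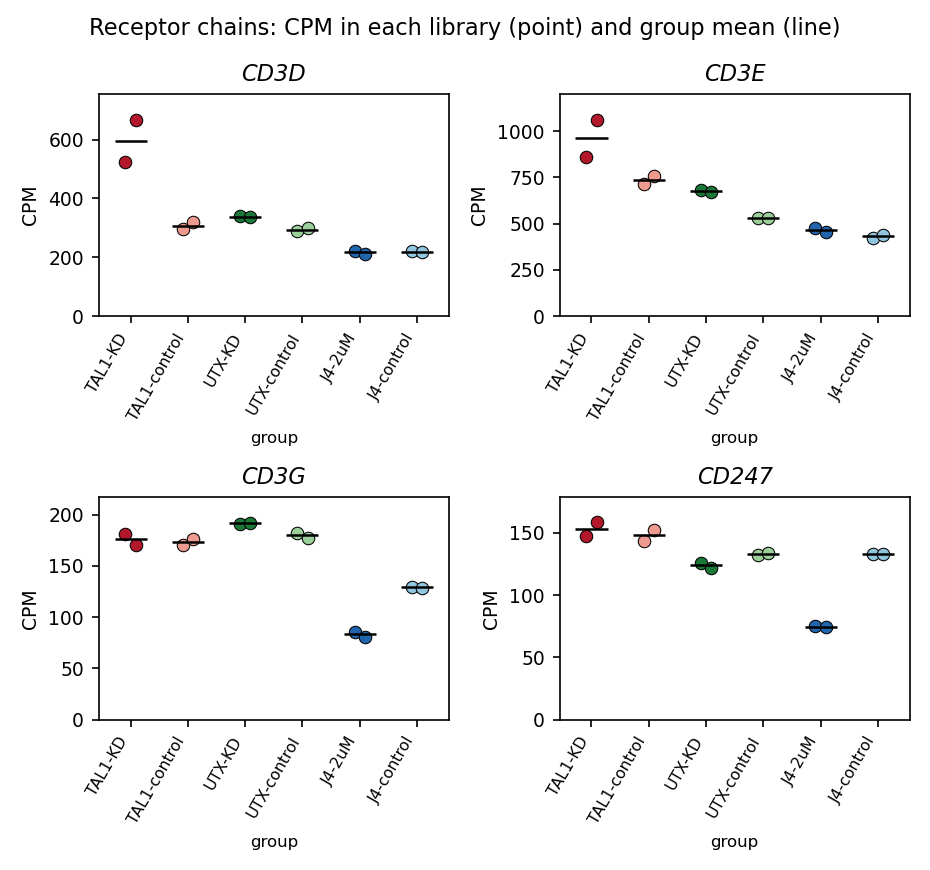
CPM of the 4 receptor chains in each library (points; line, group mean; n = 2 per group), each treated group left of its control. CD3D and CD3E are highest in TAL1-KD, and CD3G and CD247 are lowest in J4-2uM, at 81.0 to 85.8 CPM and 74.1 to 75.0 CPM.

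Costimulators and surface molecules help to set the threshold at which the receptor fires. Of the 6, 1 was called higher in TAL1-KD, 3 higher and 2 lower in UTX-KD, and 2 higher and 3 lower in J4-2uM. Of all genes tested, 26.3% were higher and 27.9% lower in TAL1-KD, 25.2% and 25.3% in UTX-KD, and 37.9% and 36.9% in J4-2uM. CD69, an early activation marker, had 4.76 and 5.38 CPM in J4-2uM libraries, against 3.31 and 3.04 CPM in J4-control libraries (log2 fold change 0.69, SE 0.10, adjusted p = 3.56e-05), and 6.40 and 8.17 CPM in UTX-KD libraries, against 6.12 and 5.31 CPM in UTX-control libraries (log2 fold change 0.31, SE 0.10, adjusted p = 0.0162). Its UTX-KD call was lost without UTX-KD replicate 2 (adjusted p = 0.288). CD5, a brake on the receptor whose level tracks its signal strength in the mouse thymus, had 99.9 and 98.2 CPM in J4-2uM libraries, against 73.5 and 70.6 CPM in J4-control libraries (log2 fold change 0.47, SE 0.03, adjusted p = 4.15e-08). In UTX-KD, CD5 had 102 and 97.3 CPM in UTX-KD libraries, against 89.0 and 88.5 CPM in UTX-control libraries (log2 fold change 0.15, SE 0.03, adjusted p = 0.00123). CD2, the receptor for CD58, had 104 and 108 CPM in UTX-KD libraries, against 81.6 and 80.6 CPM in UTX-control libraries (log2 fold change 0.37, SE 0.03, adjusted p = 5.08e-08). In the GSK-J4 comparison CD2 went the other way, with 31.6 and 30.3 CPM in J4-2uM libraries, against 37.5 and 39.1 CPM in J4-control libraries (log2 fold change -0.30, SE 0.04, adjusted p = 2.07e-05).

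CD28, the main costimulatory receptor, had 98.2 and 93.6 CPM in J4-2uM libraries, against 114 and 118 CPM in J4-control libraries (log2 fold change -0.27, SE 0.04, adjusted p = 1.06e-05), and 123 and 124 CPM in UTX-KD libraries, against 131 and 134 CPM in UTX-control libraries (log2 fold change -0.12, SE 0.03, adjusted p = 0.00211). CD27, a costimulator of the TNF receptor family, was scarce in every library, with 79 to 260 reads. It had 1.24 and 1.16 CPM in J4-2uM libraries, against 2.25 and 1.97 CPM in J4-control libraries (log2 fold change -0.80, SE 0.14, adjusted p = 0.000166), and 1.97 and 2.19 CPM in UTX-KD libraries, against 3.24 and 2.94 CPM in UTX-control libraries (log2 fold change -0.60, SE 0.12, adjusted p = 0.000298). Both fell in both comparisons, while in TAL1-KD CD28 had 85.8 and 88.9 CPM in TAL1-KD libraries, against 94.9 and 96.9 CPM in TAL1-control libraries and CD27 1.44 and 1.54 CPM in TAL1-KD libraries, against 1.32 and 1.28 CPM in TAL1-control libraries, neither called (adjusted p = 0.103 and 0.467). CD6, a relative of CD5, was the gene called in TAL1-KD, with 40.2 and 42.8 CPM in TAL1-KD libraries, against 35.1 and 34.7 CPM in TAL1-control libraries (log2 fold change 0.22, SE 0.08, adjusted p = 0.0498), at the threshold. Without TAL1-control replicate 1 or 2 its adjusted p was 0.351 and 0.395, and with the replicate number as a block 0.0782. CD2, CD5 and CD69 had log2 fold changes of 0.18, 0.18 and 0.32 there, with adjusted p values of 0.137, 0.215 and 0.0813. CD27 shares 37.02% of its annotated exon length with CD27-AS1 on the opposite strand, and since the strand setting of the counting is not stated, its reads cannot be assigned to one of the pair.

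Among the kinases, ZAP70 was called higher in all 3 comparisons and no kinase was lower in all 3. ZAP70, which docks on the phosphorylated chains, had 773 and 975 CPM in TAL1-KD libraries, against 553 and 549 CPM in TAL1-control libraries (log2 fold change 0.64, SE 0.12, adjusted p = 0.00439). Its rise was smaller in UTX-KD, with 681 and 660 CPM in UTX-KD libraries, against 604 and 618 CPM in UTX-control libraries (log2 fold change 0.11, SE 0.03, adjusted p = 0.00616), and in J4-2uM, with 417 and 436 CPM in J4-2uM libraries, against 394 and 378 CPM in J4-control libraries (log2 fold change 0.15, SE 0.04, adjusted p = 0.00196). Both smaller calls were lost in the fit on all 12 libraries (adjusted p = 0.260 and 0.141), and without UTX-control replicate 1 (adjusted p = 0.0769) and without J4-control replicate 2 (adjusted p = 0.0972). LCK, which starts the cascade, had 1044 and 1122 CPM in TAL1-KD libraries, against 862 and 904 CPM in TAL1-control libraries, groups that did not overlap but a p just past the threshold (log2 fold change 0.27, adjusted p = 0.0548); with the replicate number as a block it was 0.0217. LCK was higher in UTX-KD, with 734 and 711 CPM in UTX-KD libraries, against 638 and 653 CPM in UTX-control libraries (log2 fold change 0.14, SE 0.03, adjusted p = 0.00110). In J4-2uM it was lower, with 492 and 465 CPM in J4-2uM libraries, against 512 and 513 CPM in J4-control libraries (log2 fold change -0.09, SE 0.03, adjusted p = 0.0233), a call lost without either J4-control library (adjusted p = 0.113 and 0.143).

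TXK, a Tec family kinase of T cells, changed the most of the 6 kinases in each comparison and in opposite directions. It had 0.783 and 0.751 CPM in TAL1-KD libraries, against 2.37 and 2.30 CPM in TAL1-control libraries (log2 fold change -1.63, SE 0.19, adjusted p = 0.000707). It had 1.23 and 1.38 CPM in UTX-KD libraries, against 0.635 and 0.888 CPM in UTX-control libraries (log2 fold change 0.79, SE 0.19, adjusted p = 0.00212), and 1.72 and 1.81 CPM in J4-2uM libraries, against 0.986 and 0.974 CPM in J4-control libraries (log2 fold change 0.85, SE 0.15, adjusted p = 0.000156). The TAL1-control libraries stood above all others, and no treated group overlapped its controls. TXK was covered by few reads, 43 and 42 in TAL1-KD against 167 and 147 in TAL1-control, 89 and 95 in UTX-KD against 51 and 51 in UTX-control, and 143 and 141 in J4-2uM against 56 and 75 in J4-control. Without UTX-control replicate 1 its UTX-KD call was lost (adjusted p = 0.0528).

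FYN, a Src family kinase that partly overlaps LCK in function, had 188 and 175 CPM in TAL1-KD libraries, against 227 and 225 CPM in TAL1-control libraries (log2 fold change -0.34, SE 0.08, adjusted p = 0.0106). Without TAL1-control replicate 1 or 2 the adjusted p was 0.163 and 0.143. FYN was also lower in J4-2uM, with 109 and 104 CPM in J4-2uM libraries, against 124 and 124 CPM in J4-control libraries (log2 fold change -0.22, SE 0.03, adjusted p = 5.55e-05), and higher in UTX-KD, with 154 and 153 CPM in UTX-KD libraries, against 133 and 135 CPM in UTX-control libraries (log2 fold change 0.18, SE 0.03, adjusted p = 7.39e-05). CSK, which switches off LCK and FYN by phosphorylating their tails, fell to 158 and 157 CPM in J4-2uM libraries, against 234 and 236 CPM in J4-control libraries (log2 fold change -0.57, SE 0.03, adjusted p = 1.92e-09). It had 259 and 253 CPM in UTX-KD libraries, against 279 and 283 CPM in UTX-control libraries (log2 fold change -0.15, SE 0.03, adjusted p = 0.000275), and was not called in TAL1-KD (log2 fold change -0.09, adjusted p = 0.419). PRKCQ, the protein kinase C that links the receptor to NF-kB, had 60.4 and 55.6 CPM in J4-2uM libraries, against 76.0 and 78.2 CPM in J4-control libraries (log2 fold change -0.40, SE 0.04, adjusted p = 8.75e-07), with adjusted p values of 0.541 in TAL1-KD and 0.878 in UTX-KD. Of the 6 kinases, 1 was called higher and 2 lower in TAL1-KD, 4 higher and 1 lower in UTX-KD, and 2 higher and 4 lower in J4-2uM. Among all genes tested, 26.3% were higher and 27.9% lower in TAL1-KD, 25.2% and 25.3% in UTX-KD, and 37.9% and 36.9% in J4-2uM. In J4-2uM, LCK lost its call in the fit on all 12 libraries as well (adjusted p = 0.138).

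**Figure D3:**
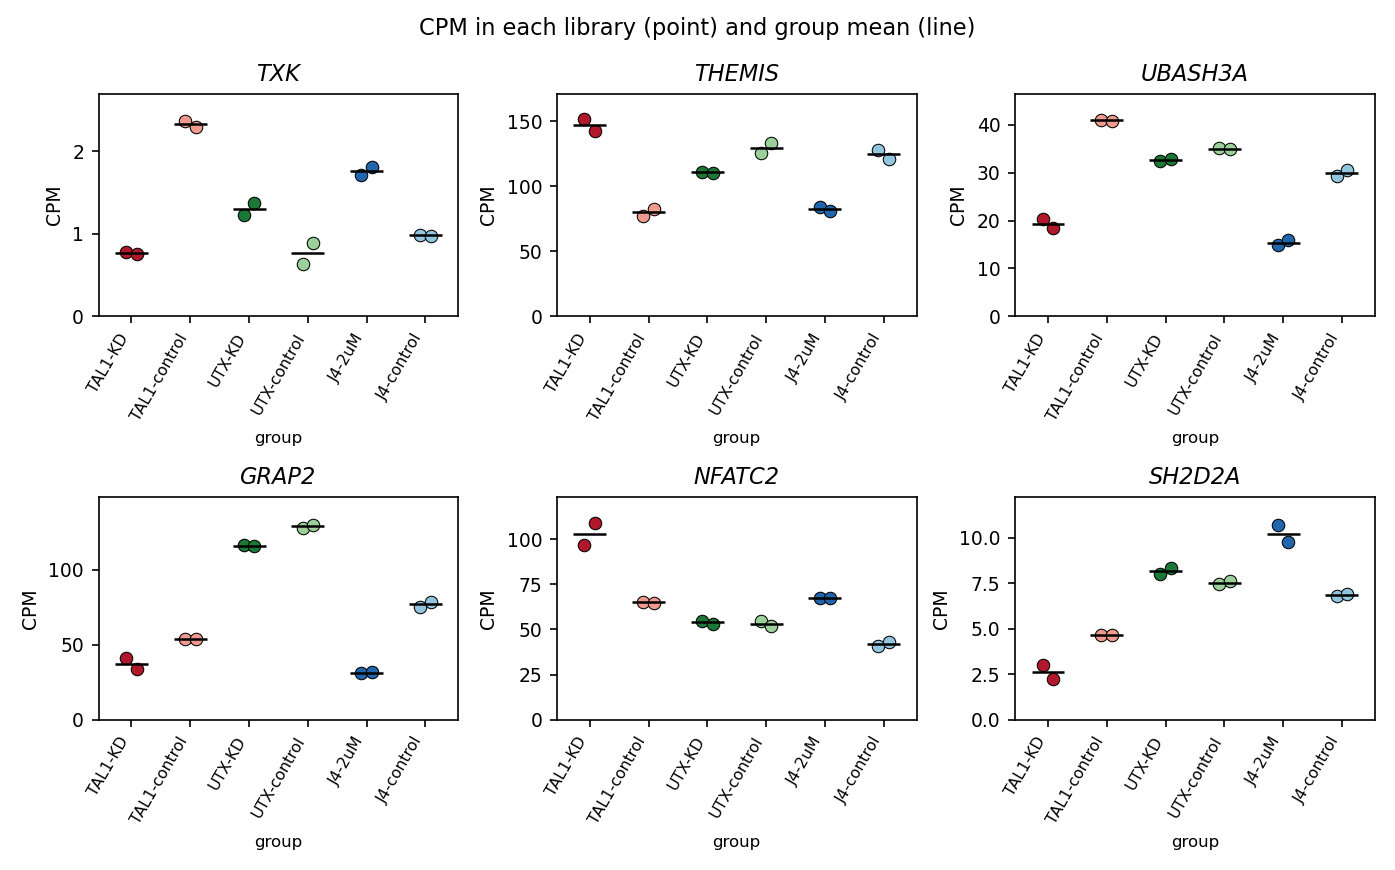
CPM in each library (points; line, group mean; n = 2 per group) of selected kinases, adaptors and other members, each treated group left of its control. TXK is highest in TAL1-control, at 2.30 and 2.37 CPM, THEMIS is highest in TAL1-KD, at 143 and 152 CPM, and GRAP2 is highest in the UTX-labelled groups.

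The adaptors moved in both directions, with 4 of 9 higher and 3 lower in TAL1-KD, 2 higher and 2 lower in UTX-KD, and 3 higher and 5 lower in J4-2uM. The shares of all genes tested were 26.3% higher and 27.9% lower in TAL1-KD, 25.2% and 25.3% in UTX-KD, and 37.9% and 36.9% in J4-2uM. GRAP2 (GADS), which tethers LCP2 to LAT, was lower in all 3 comparisons. It fell to 31.3 and 31.6 CPM in J4-2uM libraries, against 75.5 and 78.8 CPM in J4-control libraries (log2 fold change -1.29, SE 0.04, adjusted p = 6.79e-12). Of the 37 genes, this was the largest change in that comparison. GRAP2 had 41.1 and 33.6 CPM in TAL1-KD libraries, against 53.7 and 53.7 CPM in TAL1-control libraries (log2 fold change -0.55, SE 0.11, adjusted p = 0.00510), and 117 and 116 CPM in UTX-KD libraries, against 128 and 130 CPM in UTX-control libraries (log2 fold change -0.17, SE 0.03, adjusted p = 0.000115). No group overlapped its controls in these 3 comparisons, but the UTX-KD call was lost in the fit on all 12 libraries (adjusted p = 0.120). LCP2, its partner, fell in J4-2uM, with 59.4 and 57.2 CPM in J4-2uM libraries, against 79.4 and 84.6 CPM in J4-control libraries (log2 fold change -0.49, SE 0.04, adjusted p = 9.27e-08), and was not called in TAL1-KD or UTX-KD (adjusted p = 0.106 and 0.322). LAT, the membrane scaffold on which both assemble, was instead higher in all 3. LAT had 17.96 and 22.4 CPM in TAL1-KD libraries, against 15.1 and 13.1 CPM in TAL1-control libraries (log2 fold change 0.49, SE 0.13, adjusted p = 0.0178), and without TAL1-control replicate 2 an adjusted p of 0.153. It had 10.0 and 11.4 CPM in J4-2uM libraries, against 8.10 and 8.23 CPM in J4-control libraries (log2 fold change 0.39, SE 0.08, adjusted p = 0.000412), and 12.2 and 13.0 CPM in UTX-KD libraries, against 10.8 and 10.0 CPM in UTX-control libraries (log2 fold change 0.24, SE 0.06, adjusted p = 0.00368), the last not called in the fit on all 12 libraries (adjusted p = 0.0814). In the annotation of GENCODE 29, 47.7% of the LAT exon length is shared with another gene model on the same strand, so the counting rule, which is not stated for such reads, can set its level.

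THEMIS, a T-cell protein that acts on receptor signals during thymic selection, rose in TAL1-KD and fell in the other comparisons. It had 152 and 143 CPM in TAL1-KD libraries, against 77.2 and 82.6 CPM in TAL1-control libraries (log2 fold change 0.86, SE 0.08, adjusted p = 0.000399). It fell to 83.8 and 81.2 CPM in J4-2uM libraries, against 128 and 121 CPM in J4-control libraries (log2 fold change -0.59, SE 0.04, adjusted p = 6.04e-09). It also fell in UTX-KD, with 111 and 111 CPM in UTX-KD libraries, against 126 and 133 CPM in UTX-control libraries (log2 fold change -0.24, SE 0.03, adjusted p = 7.91e-06). SH2D1A (SAP), the adaptor of SLAM family receptors, had 227 and 232 CPM in TAL1-KD libraries, against 155 and 164 CPM in TAL1-control libraries (log2 fold change 0.50, SE 0.08, adjusted p = 0.00188), and 91.3 and 86.5 CPM in J4-2uM libraries, against 116 and 120 CPM in J4-control libraries (log2 fold change -0.40, SE 0.04, adjusted p = 2.76e-07). Without TAL1-control replicate 1 its call in TAL1-KD was lost (adjusted p = 0.0550). SH2D2A (TSAd), an adaptor that binds LCK, went the opposite way, with 3.01 and 2.22 CPM in TAL1-KD libraries, against 4.68 and 4.64 CPM in TAL1-control libraries (log2 fold change -0.86, SE 0.19, adjusted p = 0.00683), and 10.7 and 9.76 CPM in J4-2uM libraries, against 6.82 and 6.92 CPM in J4-control libraries (log2 fold change 0.58, SE 0.07, adjusted p = 6.22e-06). PAG1, the membrane anchor for CSK, had 45.0 and 38.4 CPM in TAL1-KD libraries, against 59.7 and 54.6 CPM in TAL1-control libraries (log2 fold change -0.48, SE 0.10, adjusted p = 0.00711), and without TAL1-control replicate 1 an adjusted p of 0.0649. In J4-2uM, PAG1 was higher, with 37.4 and 39.1 CPM in J4-2uM libraries, against 26.4 and 27.3 CPM in J4-control libraries (log2 fold change 0.51, SE 0.04, adjusted p = 1.80e-07). In UTX-KD, SH2D1A, SH2D2A and PAG1 had log2 fold changes of 0.06, 0.10 and 0.07, none called.

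GRAP, a relative of GRAP2, had 43.7 and 40.4 CPM in TAL1-KD libraries, against 32.9 and 34.8 CPM in TAL1-control libraries (log2 fold change 0.29, SE 0.09, adjusted p = 0.0265), and 34.4 and 32.9 CPM in UTX-KD libraries, against 30.0 and 30.3 CPM in UTX-control libraries (log2 fold change 0.14, SE 0.04, adjusted p = 0.0104). In J4-2uM it was lower, with 22.4 and 20.5 CPM in J4-2uM libraries, against 27.4 and 24.8 CPM in J4-control libraries (log2 fold change -0.27, SE 0.06, adjusted p = 0.000737). Its calls in TAL1-KD and UTX-KD were lost without single libraries, at adjusted p values of 0.312 and 0.169 without TAL1-control replicates 1 and 2, 0.0744 without UTX-control replicate 1 and 0.0675 without UTX-KD replicate 1. GRAP has a near-identical copy, GRAPL, and 47.4% of its exon length lies opposite SLC5A10, so its reads are uncertain. BCL10, the adaptor of the NF-kB branch, had 24.2 and 21.5 CPM in TAL1-KD libraries, against 23.0 and 23.4 CPM in TAL1-control libraries, 22.5 and 23.1 CPM in UTX-KD, against 24.4 and 21.8 CPM in UTX-control, and 22.9 and 21.3 CPM in J4-2uM, against 22.04 and 22.2 CPM in J4-control. Its groups overlapped in each comparison, and its adjusted p values were 0.730, 0.456 and 0.904.

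Of the 4 signalling enzymes, 2 were higher and 1 lower in TAL1-KD, 1 was higher in UTX-KD, and 1 was higher and 1 lower in J4-2uM. Over all genes tested, 26.3% were higher and 27.9% lower in TAL1-KD, 25.2% and 25.3% in UTX-KD, and 37.9% and 36.9% in J4-2uM. PLCG1, the phospholipase that makes the calcium and diacylglycerol signals, had 419 and 464 CPM in TAL1-KD libraries, against 345 and 347 CPM in TAL1-control libraries (log2 fold change 0.33, SE 0.09, adjusted p = 0.0183). RASGRP1, the diacylglycerol-dependent activator of Ras, had 185 and 172 CPM in TAL1-KD libraries, against 136 and 137 CPM in TAL1-control libraries (log2 fold change 0.36, SE 0.08, adjusted p = 0.00767). Both calls were lost without either TAL1-control library, with adjusted p values of 0.248 and 0.234 for PLCG1, and 0.134 and 0.117 for RASGRP1. RASGRP1 was also higher in UTX-KD, with 156 and 155 CPM in UTX-KD libraries, against 140 and 141 CPM in UTX-control libraries (log2 fold change 0.12, SE 0.03, adjusted p = 0.00226). It was lower in J4-2uM, with 103 and 101 CPM in J4-2uM libraries, against 134 and 129 CPM in J4-control libraries (log2 fold change -0.36, SE 0.03, adjusted p = 3.63e-07). MALT1, the protease that works with BCL10, had 23.5 and 20.5 CPM in TAL1-KD libraries, against 32.1 and 33.0 CPM in TAL1-control libraries (log2 fold change -0.59, SE 0.10, adjusted p = 0.00271). In J4-2uM it was higher, with 37.8 and 39.2 CPM in J4-2uM libraries, against 35.0 and 33.7 CPM in J4-control libraries (log2 fold change 0.17, SE 0.04, adjusted p = 0.00210), but not without J4-control replicate 2 (adjusted p = 0.0615). VAV1, a guanine nucleotide exchange factor, was not called, with adjusted p values of 0.0595, 0.324 and 0.0677 in TAL1-KD, UTX-KD and J4-2uM. In TAL1-KD it had 134 and 143 CPM in TAL1-KD libraries, against 156 and 156 CPM in TAL1-control libraries, which did not overlap, and without TAL1-KD replicate 1 or 2 its adjusted p was 0.0181 and 0.000664.

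Of the phosphatases and ubiquitin pathway brakes, CBLB was higher and UBASH3A lower in all 3 comparisons. CBLB, a ubiquitin ligase that raises the threshold for activation, had 30.3 and 31.1 CPM in UTX-KD libraries, against 22.3 and 22.01 CPM in UTX-control libraries (log2 fold change 0.45, SE 0.04, adjusted p = 1.93e-07), and 36.7 and 37.6 CPM in J4-2uM libraries, against 28.8 and 29.2 CPM in J4-control libraries (log2 fold change 0.36, SE 0.04, adjusted p = 2.70e-06). In TAL1-KD it had 40.1 and 37.9 CPM in TAL1-KD libraries, against 29.8 and 29.6 CPM in TAL1-control libraries (log2 fold change 0.37, SE 0.08, adjusted p = 0.00871), and without TAL1-control replicate 1 or 2 an adjusted p of 0.121 and 0.132. UBASH3A (STS-2), which dampens receptor signals, had 20.3 and 18.5 CPM in TAL1-KD libraries, against 41.0 and 40.8 CPM in TAL1-control libraries (log2 fold change -1.10, SE 0.09, adjusted p = 0.000274), and 14.8 and 15.9 CPM in J4-2uM libraries, against 29.3 and 30.5 CPM in J4-control libraries (log2 fold change -0.96, SE 0.05, adjusted p = 1.79e-09). In UTX-KD the change was small, with 32.4 and 32.9 CPM in UTX-KD libraries, against 35.1 and 34.9 CPM in UTX-control libraries (log2 fold change -0.12, SE 0.04, adjusted p = 0.0167), and without UTX-control replicate 1 or 2 the adjusted p was 0.117 and 0.0786. PTPRC (CD45), the phosphatase that keeps LCK ready to act, fell to 258 and 249 CPM in J4-2uM libraries, against 383 and 402 CPM in J4-control libraries (log2 fold change -0.62, SE 0.03, adjusted p = 2.44e-09). In UTX-KD it was higher, with 507 and 540 CPM in UTX-KD libraries, against 448 and 438 CPM in UTX-control libraries (log2 fold change 0.22, SE 0.03, adjusted p = 3.21e-05). PTPN6 (SHP-1), a phosphatase that opposes the proximal kinases, had 37.6 and 46.6 CPM in TAL1-KD libraries, against 31.7 and 29.7 CPM in TAL1-control libraries (log2 fold change 0.43, SE 0.11, adjusted p = 0.0148), a call lost without TAL1-control replicate 2 (adjusted p = 0.103). It had 26.8 and 26.9 CPM in J4-2uM libraries, against 22.2 and 22.4 CPM in J4-control libraries (log2 fold change 0.27, SE 0.04, adjusted p = 7.91e-05). PTPN22, a phosphatase that partners with CSK, had 38.6 and 40.7 CPM in UTX-KD libraries, against 31.4 and 32.0 CPM in UTX-control libraries (log2 fold change 0.30, SE 0.04, adjusted p = 1.05e-05), and 30.9 and 31.0 CPM in J4-2uM libraries, against 25.8 and 27.2 CPM in J4-control libraries (log2 fold change 0.23, SE 0.04, adjusted p = 0.000416), while its TAL1-KD libraries, at 30.8 and 24.0 CPM, lay on either side of 28.1 and 27.2 CPM in TAL1-control.

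NFAT transcription factors enter the nucleus when calcium rises. NFATC2 had 97.0 and 109 CPM in TAL1-KD libraries, against 65.4 and 64.6 CPM in TAL1-control libraries (log2 fold change 0.64, SE 0.08, adjusted p = 0.000912), and 67.4 and 67.6 CPM in J4-2uM libraries, against 40.6 and 43.0 CPM in J4-control libraries (log2 fold change 0.69, SE 0.04, adjusted p = 2.21e-09). In UTX-KD it had 54.5 and 53.2 CPM, against 54.5 and 51.9 CPM in UTX-control (adjusted p = 0.927). NFATC1 had 67.9 and 65.0 CPM in J4-2uM libraries, against 59.2 and 57.8 CPM in J4-control libraries (log2 fold change 0.19, SE 0.04, adjusted p = 0.000321), and was lower in UTX-KD, with 61.6 and 61.5 CPM in UTX-KD libraries, against 63.2 and 67.2 CPM in UTX-control libraries (log2 fold change -0.10, SE 0.04, adjusted p = 0.0257). NFATC3 differed little, with adjusted p values of 0.855 in TAL1-KD and 0.231 in J4-2uM, and 129 and 125 CPM in UTX-KD libraries, against 133 and 132 CPM in UTX-control libraries (log2 fold change -0.09, SE 0.03, adjusted p = 0.0272). The UTX-KD calls of NFATC1 and NFATC3 were lost without UTX-control replicate 2, at adjusted p values of 0.385 and 0.102, and that of NFATC3 also without UTX-control replicate 1 (0.187) and UTX-KD replicate 2 (0.108). NFATC3 shares 19.0% of its exon length with models on its own strand and 33.0% with ESRP2 and another model on the opposite strand.

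The precision of these comparisons differed. Under every alternative tried (other scalings, filters, thresholds and tests, the replicate block, a fit on all 12 libraries and each library left out), 9 of 20 calls in TAL1-KD held: CD3D, ZAP70, TXK, GRAP2, SH2D2A, THEMIS, MALT1, UBASH3A and NFATC2. In UTX-KD 10 of 24 held (CD3E, CD2, CD27, LCK, FYN, THEMIS, RASGRP1, PTPRC, PTPN22 and CBLB), and in J4-2uM 27 of 31, all but CD3E, LCK, ZAP70 and MALT1. In the fit on all 12 libraries, 9 of the 37 genes were higher and 2 lower in UTX-KD. Of all genes, 2446 were lower in that fit, beside 4269 in the fit on 4 libraries. With GSK-J4, some markers of other cell types also moved. Of 4 NK-cell markers tested, 4 were higher. Their summed level was 10.3 and 11.7 CPM in J4-2uM against 5.63 and 5.92 CPM in J4-control. Of 4 B-cell markers tested, 4 were higher. Summed over 6 B-cell markers, the level was 79.5 and 88.3 CPM in J4-2uM against 38.5 and 38.9 CPM in J4-control, nearly all of it CD79A. Of 3 myeloid markers tested, 0 were called in J4-2uM, and the 1 epithelial marker tested was higher. Of 10 T-lineage markers tested, 8 were lower in J4-2uM and 2, PTCRA and GATA3, higher. In TAL1-KD 6 of the 10 were lower and 1, GATA3, higher, and in UTX-KD 4 were lower and 3 higher. Among all genes tested, 37.9% were higher and 36.9% lower in J4-2uM, 26.3% and 27.9% in TAL1-KD, and 25.2% and 25.3% in UTX-KD. The summed B-cell markers were at 58.0 and 59.6 CPM in UTX-KD, against 40.4 and 41.3 CPM in UTX-control. The part of these markers in the changes of the 37 genes was not tested.

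Whether a gene responded differently to 2 treatments was tested in 1 model of the 8 libraries concerned, in which the pair shares no library. The TAL1-KD response minus the J4-2uM response was higher for 17 of the 37 genes and lower for 5, where 26.3% and 27.6% of 18206 genes were called in these directions. The UTX-KD response minus the J4-2uM response was higher for 18 and lower for 8, against 30.1% and 28.3% of 18197 genes, and the TAL1-KD response minus the UTX-KD response was higher for 10 and lower for 9, against 25.0% and 25.1% of 17611 genes. In either direction, 53.9%, 58.4% and 50.1% of all genes had a called difference in these 3 tests. Against GSK-J4, 3 of the 4 receptor chains responded more highly in TAL1-KD, by 0.97 log2 units for CD3D (SE 0.14, adjusted p = 0.000201), 0.65 for CD3G (SE 0.09, adjusted p = 0.000104) and 0.88 for CD247 (SE 0.08, adjusted p = 1.15e-05). In UTX-KD all 4 did, by 0.18, 0.20, 0.68 and 0.70 for CD3D, CD3E, CD3G and CD247. The difference for CD3E between TAL1-KD and J4-2uM was 0.27 (SE 0.13) and was not called (adjusted p = 0.114).

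The largest difference among the kinases was that of TXK, at -2.45 (SE 0.21) for TAL1-KD minus J4-2uM (adjusted p = 6.47e-06) and -2.38 (SE 0.26) for TAL1-KD minus UTX-KD (adjusted p = 0.000155). Between UTX-KD and J4-2uM the difference of TXK was -0.07 (SE 0.25, adjusted p = 0.820). Among the adaptors, THEMIS differed in all 3 pairs, at 1.48 (SE 0.09), 1.14 (SE 0.08) and 0.33 (SE 0.05) for TAL1-KD minus J4-2uM, TAL1-KD minus UTX-KD and UTX-KD minus J4-2uM. GRAP2, lower in all 3 treatments, still differed in size, at 0.77 (SE 0.12) for TAL1-KD minus J4-2uM (adjusted p = 0.000296) and 1.11 (SE 0.05) for UTX-KD minus J4-2uM (adjusted p = 6.27e-17). For TAL1-KD minus UTX-KD it was -0.34 (SE 0.12, adjusted p = 0.0332), a call lost without any 1 of the 4 control libraries or of the 2 UTX-KD libraries (adjusted p = 0.0800 to 0.106). UBASH3A responded alike in sign, and its difference was -0.12 (SE 0.10) for TAL1-KD minus J4-2uM (adjusted p = 0.351), but -0.95 (SE 0.09) for TAL1-KD minus UTX-KD (adjusted p = 7.50e-05). PTPRC differed by 0.83 (SE 0.05) between UTX-KD and J4-2uM (adjusted p = 5.20e-14), and NFATC2 by -0.71 (SE 0.06, adjusted p = 6.95e-12). CBLB, LAT, CD6, BCL10, NFATC3 and PTPN22 had no called difference in any pair.

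Scaling bears on the differences with TAL1-KD. Upper quartile scaling shifted the median of all genes by -0.15 in TAL1-KD minus UTX-KD and by -0.11 in TAL1-KD minus J4-2uM, and turned the split of all calls to 3126 higher and 5830 lower (4405 and 4420 with TMM) and to 4033 and 5848 (4791 and 5019 with TMM). In TAL1-KD minus UTX-KD it ended the calls of PLCG1 (adjusted p = 0.0501), PTPN6 (0.0661), RASGRP1 (0.226) and NFATC1 (0.339). Those of PTPN6, RASGRP1 and NFATC1 were also lost without single libraries, for example without UTX-control replicate 1 (adjusted p = 0.0539, 0.0631 and 0.0733). It ended no call of the 37 genes in TAL1-KD minus J4-2uM.

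**Figure D4:**
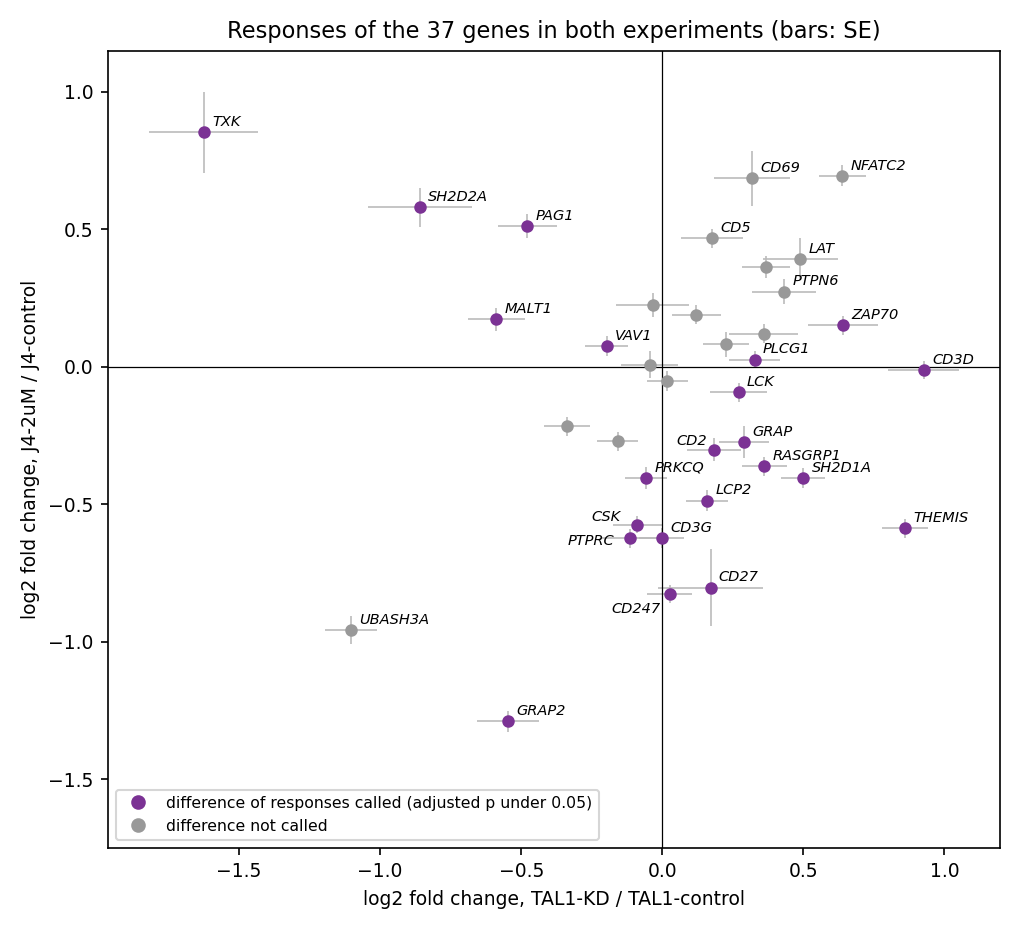
Log2 fold changes of the 37 genes in TAL1-KD over TAL1-control (x axis) and J4-2uM over J4-control (y axis), with SE bars; purple marks genes whose difference of responses had an adjusted p below 0.05. TXK, SH2D2A, PAG1 and MALT1 lie at upper left and THEMIS, SH2D1A, RASGRP1 and GRAP at lower right, with calls of opposite direction in the 2 comparisons.

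The control cultures already differed before treatment, and culture line, medium and experiment cannot be told apart in this. In UTX-control against TAL1-control, 12 of the 37 genes were higher and 18 lower, where 36.2% and 35.9% of genes tested were called. In J4-control against TAL1-control, 9 were higher and 23 lower, against 39.7% and 32.1%. In J4-control against UTX-control, 1 was higher and 29 lower, against 24.6% and 25.0% of 17585 genes (49.6% in either direction), and the 1 was CBLB (log2 fold change 0.39, SE 0.04, adjusted p = 4.71e-07). These contrasts share groups and are given side by side only. The split of all genes in the last contrast depends on the scaling, with 4331 higher and 4399 lower under TMM, 5352 and 2930 under upper quartile scaling, and 3663 and 5546 under the size factors of DESeq2.

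Some of the larger of these differences follow, and of the list only BCL10 and VAV1 were called in no treatment. TAL1-control is also the control of TAL1-KD, so differences from it are not independent of the TAL1-KD responses. GRAP2 had 128 and 130 CPM in UTX-control, 75.5 and 78.8 CPM in J4-control and 53.7 and 53.7 CPM in TAL1-control, log2 differences from TAL1-control of 1.32 (SE 0.03) and 0.58 (SE 0.03). CD2 had 81.6 and 80.6 CPM in UTX-control, 37.5 and 39.1 CPM in J4-control and 33.2 and 36.0 CPM in TAL1-control. TXK was lower in both other controls, with 0.635 and 0.888 CPM in UTX-control and 0.986 and 0.974 CPM in J4-control, against 2.37 and 2.30 CPM in TAL1-control (log2 -1.60, SE 0.17, and -1.20, SE 0.16). The TXK level of TAL1-KD libraries, 0.783 and 0.751 CPM, thus lay within the range of the UTX-control and J4-control libraries. THEMIS had 126 and 133 CPM in UTX-control and 128 and 121 CPM in J4-control, against 77.2 and 82.6 CPM in TAL1-control (log2 0.75, SE 0.04, and 0.70, SE 0.04). FYN, PRKCQ and PAG1 were highest in TAL1-control: FYN differed by -0.70 in UTX-control and -0.81 in J4-control, PRKCQ by -0.57 and -0.75, and PAG1 by -0.66 and -1.03. CD69 was lowest in J4-control, at 3.31 and 3.04 CPM, against 6.64 and 7.59 CPM in TAL1-control (log2 -1.11, SE 0.10). Among the receptor chains CD3E differed most, at -0.42 in UTX-control and -0.72 in J4-control relative to TAL1-control, while CD247 had -0.10 and -0.10, calls lost without TAL1-control replicate 2 (adjusted p = 0.0626 and 0.0509).

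**Figure D5:**
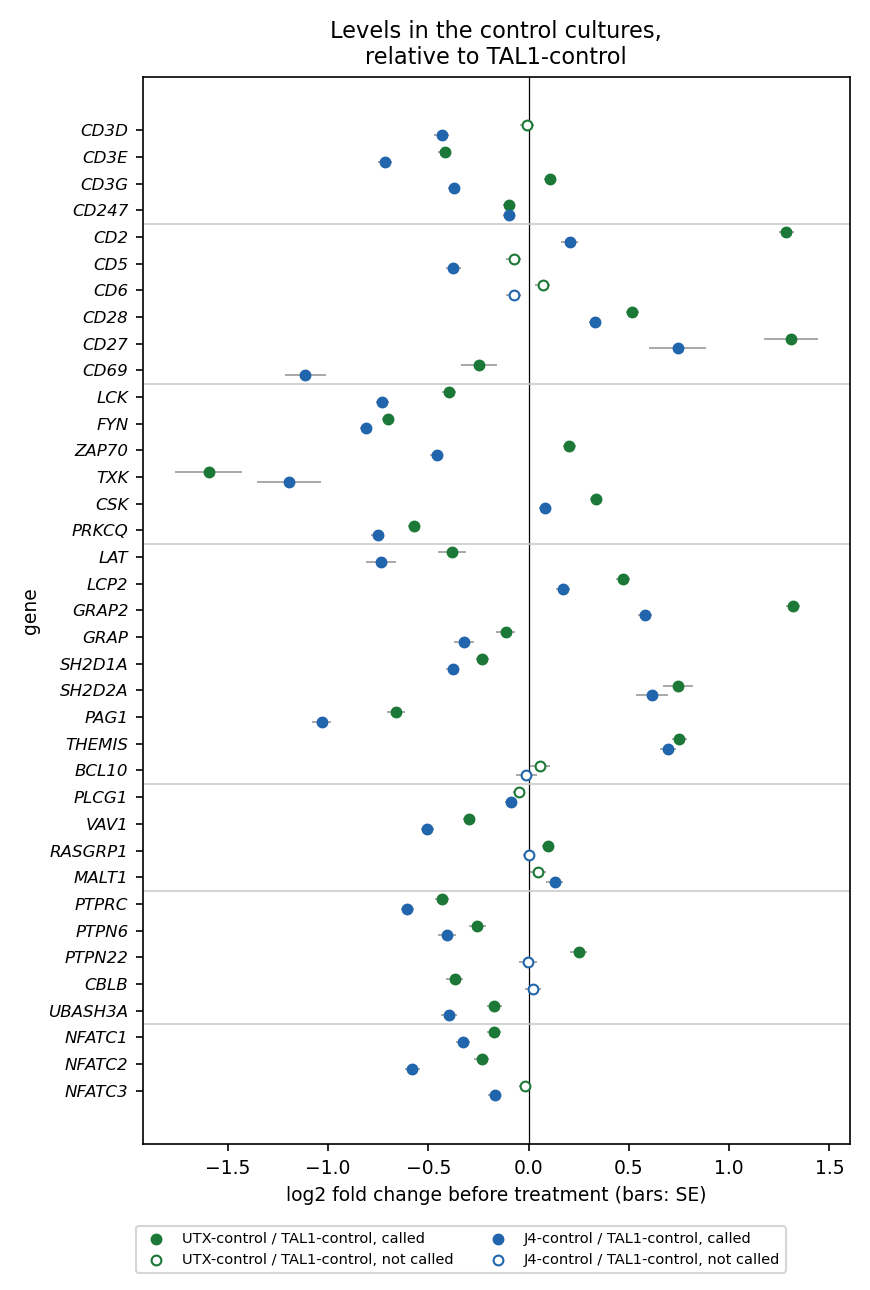
Log2 differences of UTX-control (green) and J4-control (blue) from TAL1-control before treatment for the 37 genes, with SE bars; filled points have an adjusted p below 0.05. GRAP2, CD2 and CD27 lie furthest to the right in UTX-control, and TXK, CD69 and PAG1 furthest to the left in J4-control.

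Of 81 further pathway genes, 79 matched an identifier, and TRAC and ORAI1 are not analysed here. In TAL1-KD, 19 of 73 tested (26.0%) were higher and 28 (38.4%) lower, beside 26.3% and 27.9% of all genes. In UTX-KD 24 of 72 (33.3%) were higher and 18 (25.0%) lower, beside 25.2% and 25.3%. In J4-2uM 33 of 74 (44.6%) were higher and 27 (36.5%) lower, beside 37.9% and 36.9%. The median log2 fold changes were -0.05, 0.06 and 0.06, beside -0.02, 0.01 and 0.01 over all genes tested. The named genes are the 4 with the smallest adjusted p in each direction. STIM1, the calcium sensor of the endoplasmic reticulum, had 484 and 550 CPM in TAL1-KD libraries, against 312 and 321 CPM in TAL1-control libraries (log2 fold change 0.68, SE 0.10), and ITPR1, an inositol trisphosphate receptor, 53.1 and 53.3 CPM in TAL1-KD libraries, against 36.6 and 36.1 CPM in TAL1-control libraries (log2 fold change 0.52, SE 0.08). Its relative ITPR2 had 59.2 and 48.6 CPM in TAL1-KD libraries, against 135 and 133 CPM in TAL1-control libraries (log2 fold change -1.34, SE 0.11), and PPP3CB, a catalytic subunit of calcineurin, had a log2 fold change of -1.05 (SE 0.13). The adaptor NCK2 (0.63) and the kinase ITPKB (0.55) were also higher in TAL1-KD, and the coreceptor CD4 (-1.32) and the Ras inhibitor RASA3 (-0.84) lower. In J4-2uM, INPP5D (SHIP1), a lipid phosphatase that limits the signal, had 135 and 145 CPM in J4-2uM libraries, against 58.7 and 57.6 CPM in J4-control libraries (log2 fold change 1.28, SE 0.04), and PIK3R1, a regulatory subunit of the lipid kinase PI3K, had 75.6 and 73.5 CPM in J4-2uM libraries, against 148 and 157 CPM in J4-control libraries (log2 fold change -1.02, SE 0.04). LY9, a SLAM family receptor, had 20.6 and 21.0 CPM in J4-2uM libraries, against 6.94 and 7.69 CPM in J4-control libraries (log2 fold change 1.51, SE 0.06). The actin regulator WIPF1 (0.83) and the ubiquitin ligase CBL (0.72) were higher, and TESPA1 (-0.87), ITPR2 (-0.98) and the actin-binding CORO1A (-0.70) lower. In UTX-KD, LY9 (1.05, SE 0.06), DGKA (0.52), which removes diacylglycerol, CD48 (0.49), a SLAM family ligand, and INPP5D (0.43) were higher. The calcineurin inhibitor RCAN1 (-0.42), PIK3R1 (-0.36), HRAS (-0.48) and the Arp2/3 subunit ARPC1B (-0.36) were lower.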

How the data were processed

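RNA of 12 Jurkat libraries in 6 groups of 2 was read from 3 deposited tables. The tools were HTSeq 0.6.1p1, DESeq2 and TopHat2 2.0.12 on the build hg19, per the submitters' processing notes; the annotation and the strand setting of the counting are not given in the sources used here. The authors deposited raw read counts per Ensembl gene. The log2 fold changes and the p-values deposited by the authors came from their own fits and served for 1 comparison in the closing section. The mean signal and the test statistic (a score) that the authors deposited were not used.

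Counts were tested with the quasi-likelihood test of edgeR 4.0.16 in R 4.3.3, with TMM scaling, filterByExpr, two-sided p-values and Benjamini-Hochberg adjustment over all genes tested. Each treatment was fitted on its own 4 libraries, differences of responses on 8, and the 6 control libraries together. The SE is the size of the log2 value over the root of its F statistic. CPM values share 1 TMM scale over 12 libraries, and differ from the scales of the comparisons by medians of -0.0551 to 0.0233 log2 units. Exon length and overlaps came from GENCODE 29, promoters from RefSeq. The procedure was tested on simulated data. Alternatives were other scalings and filters, a stricter threshold, DESeq2 1.42.0, a replicate block, a fit on all 12 libraries and each library left out.

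The 37 genes and the lists were chosen with earlier results of these data known. All 37 genes are named; of the further pathway genes, up to 4 per direction and comparison are named, by smallest adjusted p among genes averaging 50 or more normalised counts.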

Additional observations from a re-analysis of the deposited data

Results flagged for a closer look

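In 18 cases a gene was called in opposite directions in 2 comparisons, and the difference of the responses itself also passed the test; values are differences in log2 units. They were 3, 8 and 7 of the 37 genes (8.11%, 21.6% and 18.9%) for TAL1-KD minus UTX-KD, TAL1-KD minus J4-2uM and UTX-KD minus J4-2uM, beside 11.2%, 15.8% and 8.08% of all genes tested, and whether these shares differ was not tested. For TAL1-KD minus UTX-KD these were TXK (-2.38), THEMIS (1.14) and FYN (-0.48). For TAL1-KD minus J4-2uM they were THEMIS (1.48), SH2D1A (0.93), RASGRP1 (0.75) and GRAP (0.60), higher in TAL1-KD, and TXK (-2.45), SH2D2A (-1.41), PAG1 (-0.96) and MALT1 (-0.73), lower in TAL1-KD. For UTX-KD minus J4-2uM they were PTPRC (0.83), CD2 (0.66), RASGRP1 (0.47), GRAP (0.40), FYN (0.39) and LCK (0.22), higher in UTX-KD, and NFATC1 (-0.30), lower in UTX-KD. The 3 comparisons used different cultures, and that of GSK-J4 another medium, which cannot be told apart from the treatments in these differences.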

How the results depend on the processing

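Of 4477 values of the 37 genes under the alternatives, 0 changed the direction of a called gene, 201 lost a call, 106 gained one, and 112 differed in sign with neither value called. At an adjusted p below 0.01, TAL1-KD against TAL1-control had 2872 genes higher and 3046 lower (4424 and 4696 at 0.05) and 7 of the 37 higher (13), and TAL1-KD minus UTX-KD had 2786 genes lower (4420) and 5 of the 37 lower (9). In the fit on all 12 libraries, UTX-KD had 2446 genes lower (4269) and 9 of the 37 higher (15) and 2 lower (9). Upper quartile scaling gave 6 of the 37 higher for TAL1-KD minus UTX-KD (10). For J4-control against UTX-control it gave 2930 genes lower (4399) and 2 of the 37 higher (1), a minimum mean CPM of 1 also gave 2 higher, and DESeq2 gave 2588 genes higher (4331). The cause was not tested.

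With 1 library left out, the lone sample is assumed to vary like the other group. TAL1-KD then had 2431 to 5869 genes higher and 3094 to 6083 lower, and 5 to 17 of the 37 higher and 5 to 12 lower. TAL1-KD minus UTX-KD had 7 to 17 of the 37 higher and 5 to 11 lower, J4-control against TAL1-control 5 to 9 higher, and J4-control against UTX-control 2678 to 4650 genes higher. The replicate numbers do not pair the libraries by any label, and with 2 pairs the deviations of same-numbered libraries correlated at 0.20, -0.13 and -0.05 across genes. The replicate block left 13 of the 37 higher and 7 lower in TAL1-KD, 15 and 9 in UTX-KD and 14 and 17 in J4-2uM. It ended the calls of CD6 in TAL1-KD (adjusted p = 0.0782), NFATC3 in UTX-KD (0.0521) and VAV1 in TAL1-KD minus UTX-KD (0.0685), and made those of LCK in TAL1-KD (0.0217), MALT1 in UTX-KD (0.0353) and CD5 in TAL1-KD minus J4-2uM (0.0349). A crossed block for the UTX-labelled libraries, chosen after seeing the data, gave 16 of the 37 higher and 10 lower. The share of all genes called with that block is not given here. Without a block it was 25.2% higher and 25.3% lower.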

Other observations

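In the authors' deposited table for TAL1-KD, 13 of the 37 genes had an adjusted p below 0.05 with a higher and 7 with a lower fold change, and 35 of 37 had the same call as here. In the authors' deposited table for UTX-KD, 13 were higher and 7 lower, with the same call for 33. In the authors' deposited table for GSK-J4, 14 were higher and 17 lower, with the same call for all 37. The shares of all genes called in the authors' tables were not counted. In the edgeR test used here they were 54.2% in TAL1-KD, 50.5% in UTX-KD and 74.9% in J4-2uM. Calls in the opposite direction numbered 0.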
